A study of Hydrangea macrophylla with 27 samples.

Results

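Unbent stems of Hydrangea macrophylla harvested at 3 h were compared with stems harvested shortly before the bending treatment of the series began, which gave 3 libraries per group and 6 of the 27 libraries in all. The libraries were chosen by their labels alone. Both groups were stems of wild-type plants of the cultivar 'Wudu', raised from micro-cuttings in a climate-controlled chamber under a 16 h photoperiod. Neither group was bent. The chamber was at 23 °C by day and 21 °C by night, with light of 100 µmol per square metre and second and 80% humidity. For both groups alike, 70 mg is given for the stem, 5 weeks for the cuttings and 2 days before for subirrigation. The first group was cut 15 min before the treatment, which ran from 9:00 to 10:00 in the morning, and the second was the untreated control cut 3 h after the treatment of the other plants. Whether those hours run from the beginning or the finish of the bending is not stated. The comparison therefore asks what differs between unbent stems cut early and later in the same day. The hour of the day and the time elapsed since the first harvest cannot be told apart in it. Unbent stems of 1, 24 and 72 h, also 3 libraries each, are used where a gene's course is given. At 24 and 72 h, the hour of the day was again close to that of the first harvest.

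Plants keep a circadian clock in which genes that peak around dawn repress those of later hours, and genes of later hours repress those of the morning in turn. LHY and the related REVEILLE proteins (RVE) act in the morning, pseudo-response regulators follow each other through the day, and an evening complex of ELF3, ELF4 and LUX acts towards dusk. The clock times many outputs of the day, among them light harvesting, carbon fixation, starch turnover and growth. It has been studied most in Arabidopsis leaves and seedlings, and the roles given here are those known from that plant unless another is named. Names are the best Swiss-Prot match of an assembled transcript cluster, often from another species, so clusters of 1 name may be fragments or related copies that share reads.

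RNA enriched for poly(A) transcripts was sequenced, and the deposited expected counts were totalled per library to 15.0 M, 15.9 M and 18.3 M before the treatment and 18.0 M, 15.3 M and 19.7 M at 3 h. Levels are given as CPM, counts scaled to library size with TMM factors, always in the order of replicates 1, 2 and 3. Of 142016 clusters, 52918 passed the filter on low counts. Ribosomal RNA took 4.48%, 8.44% and 3.05% of the counts before and 3.07%, 4.06% and 3.15% at 3 h, Hydrangea ringspot virus took 5.84%, 5.97% and 4.28% before and 3.74%, 5.82% and 3.99% at 3 h, and matches to thrips, a plant-feeding insect, reached 0.0534% in replicate 3 before. Among chloroplast-encoded clusters, 15 of 318 were higher and 16 lower at 3 h, and the lower count became 4 without replicate 2 before and 50 without replicate 3 before. With the clusters of other organisms and ribosomal RNA left out of the fit, 7456 clusters were called at 3 h against before, 99.4% of the calls with them included were kept, and all 233 named clusters with a call kept it. The part of the chloroplast differences in the results below was not tested.

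The stems of 3 h differed from those before in many genes, mostly by less than 2-fold. With Benjamini-Hochberg adjustment of edgeR's quasi-likelihood p-values, 7471 clusters (14.1% of those tested) had an adjusted p under 0.05, 4361 of them higher at 3 h (8.24%) and 3110 lower (5.88%). At a minimum of 2-fold there were 874 of the higher clusters (1.65% of those tested) and 994 of the lower ones (1.88%), so the share of higher clusters was 58.4% among all calls and 46.8% among calls of at least 2-fold. The other 5603 calls (75.0%) were smaller changes. Among the 24388 tested clusters with a Swiss-Prot match, from which the gene lists below are drawn, 5194 (21.3%) were called, 12.1% higher and 9.15% lower, so a list's share is read against these values. The 3 libraries of one group lay entirely above the 3 of the other in 14899 clusters (28.2%). In the same fit, 5455 clusters (10.3%) differed from before at 1 h (6.46% higher, 3.85% lower), 4446 (8.4%) at 24 h (4.66% higher, 3.75% lower) and 5475 (10.3%) at 72 h (5.58% higher, 4.76% lower), all against the same 3 libraries before. Tests between later times called 5630 clusters (10.6%) for 3 h against 24 h and 6749 (12.8%) for 3 h against 1 h. The replicates were labelled as biological, and the p-values set each difference against a spread between replicates that was estimated with all 27 libraries. In stem tissue, fewer cells of a type and less RNA per cell cannot be told apart.

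Most of the tested clusters of the morning clock (8 of 14) were lower at 3 h. LHY (Cluster-9242.62483), a repressor at the core of the morning clock, had 115, 135 and 125 CPM before and 18.3, 19.8 and 20.1 CPM at 3 h. Every library of 3 h lay far below every library before, and the log2 fold change was -2.69 ± 0.13 (SE), with an adjusted p of 1.95e-13 in edgeR. RVE8, an activator of genes of later hours, went from 51.3, 51.1 and 53.3 to 17.0, 14.3 and 13.3 CPM, a log2 fold change of -1.80 ± 0.10. Its 3 libraries of each group were close together and did not overlap with the other group. LNK3, of a family of coactivators that work with RVE8, went from 223, 215 and 228 to 138, 131 and 125 CPM, a change of -0.76 ± 0.07. Again the groups did not overlap, though the change was below 2-fold.

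Of the 14 morning clock clusters tested, 8 were lower at 3 h and 0 were higher, with a median log2 fold change of -0.52 against -0.029 over all clusters tested. The 8 that fell were both LHY clusters, RVE8, LNK3, both LNK1 clusters, and 1 cluster each of RVE1 and RVE6. The second LHY cluster (Cluster-9242.58125) fell by 1.03 on the log2 scale, and LNK1 (Cluster-9242.70163) fell by 1.36. Other copies behaved differently, since 2 further RVE1 clusters had log2 fold changes of 0.15 ± 0.10 and -0.10 ± 0.12 and 2 further RVE6 clusters had 0.16 ± 0.08 and 0.11 ± 0.16, none of which passed the test. LNK2 had 0.01 ± 0.07, with 147, 145 and 169 CPM before and 168, 146 and 148 CPM at 3 h, groups that overlap. No call was made for APRR7 either, which was below 1 CPM in each of the 6 libraries.

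Most tested clusters of the later clock (15 of 22) were higher at 3 h. APRR5 (Cluster-9242.37526), a pseudo-response regulator of the afternoon, had 12.4, 10.7 and 14.2 CPM before and 50.1, 38.4 and 43.1 CPM at 3 h, a log2 fold change of 1.82 ± 0.12. GIGANTEA (GI, Cluster-9242.54233), which stabilises clock proteins in the light, went from 109, 99.4 and 111 to 246, 207 and 226 CPM, a change of 1.09 ± 0.07 with an adjusted p of 3.01e-17 in edgeR. In both genes the lowest library of 3 h stood above the highest before. APRR1 (Cluster-9242.51574), known as TOC1, rose by 0.63 ± 0.08 from 44.7, 44.4 and 45.9 to 74.1, 63.2 and 71.5 CPM. LUX, the DNA-binding member of the evening complex, went from 1.88, 2.13 and 3.42 to 21.8, 16.4 and 17.9 CPM, a change of 2.89 ± 0.19. The largest rise of the clock lists was that of ADO3, an F-box protein that senses blue light and is known as FKF1. It had 0.603, 0.776 and 1.47 CPM before and 19.9, 12.8 and 13.7 CPM at 3 h, a change of 3.98 ± 0.30 with an adjusted p of 8.31e-14.

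Of the 22 clusters of the later clock tested, 15 were higher at 3 h and 1 was lower, with a median log2 fold change of 0.63. The other partners of the evening complex moved less than LUX, with ELF3 (Cluster-9242.26385) at 0.42 ± 0.09, ELF4 at 0.48 ± 0.10 and the ELF4-like genes EFL2, EFL3 and EFL4 between 0.63 and 0.80. Among clusters named for rice pseudo-response regulators, PRR37 rose by 1.00 ± 0.07 in Cluster-9242.41018 and by 0.69 ± 0.07 in Cluster-9242.34432, PRR95 rose by 0.71 ± 0.14 and PRR73 by 0.27 ± 0.07. Another PRR37 cluster (Cluster-9242.37420) was the lower one, at -0.65 ± 0.15. The clusters with these rice names were placed in the later list and APRR7 in the morning list. The counts of both lists depend on that placement. A second GI cluster at low level rose from 0.134, 0.453 and 0.368 to 1.53, 0.921 and 1.29 CPM, with an adjusted p of 0.0316 that did not hold under every alternative. No call was made for ADO1, known as ZEITLUPE, at -0.15 ± 0.08, or for the other APRR5, APRR1 and ELF3 clusters. Left-out libraries changed the 8 lower morning clusters to 7 at the least and the 15 higher later clusters to 14.

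**Figure D1:**
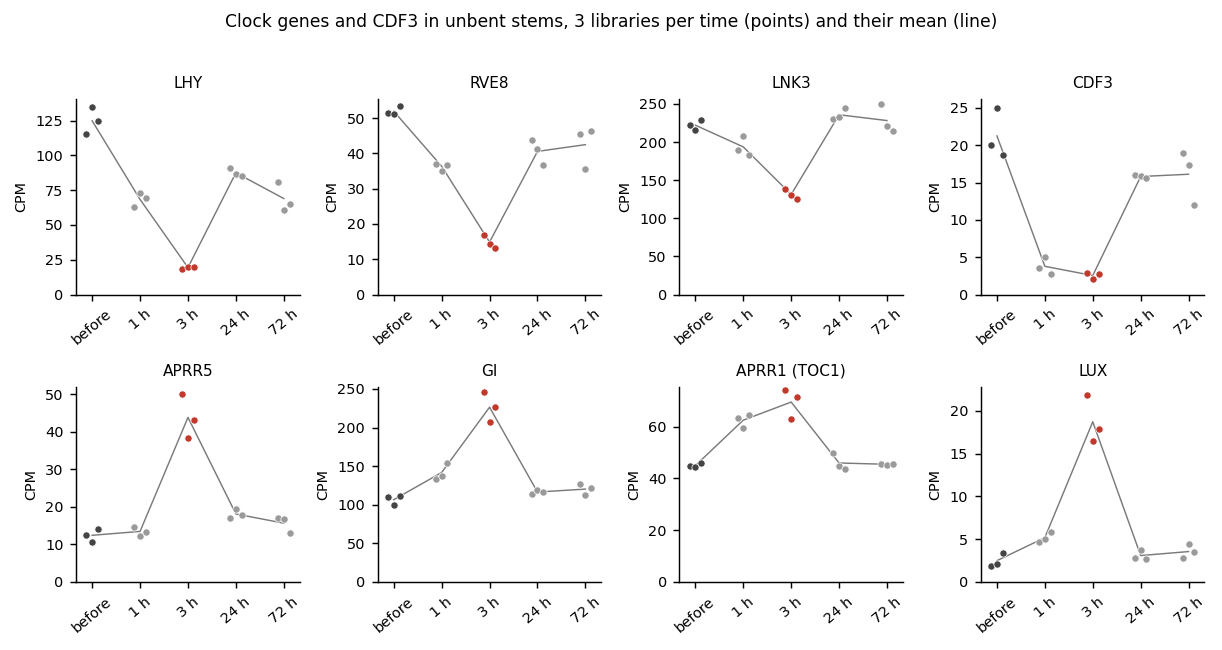
CPM of 4 genes that were lower at 3 h (LHY, RVE8, LNK3 and CDF3) and 4 that were higher (APRR5, GI, APRR1 and LUX) in unbent stems, by harvest time, on linear axes from 0. Points are libraries, 3 per time (dark before, red at 3 h), and lines join the means. LHY fell from 115, 135 and 125 CPM before to 18.3, 19.8 and 20.1 CPM at 3 h, and APRR5, GI and LUX had their highest libraries at 3 h.

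The course over the other unbent stems showed when each gene had moved. LHY averaged 68.4 CPM at 1 h, 19.4 at 3 h, 87.6 ± 2.93 (SD, n = 3) at 24 h and 69.0 ± 10.8 at 72 h, against 125 ± 9.62 before. Stems of 3 h were below those of 24 h by a log2 fold change of -2.18 ± 0.13, although LHY also stayed below the first harvest at 24 h, at -0.51 ± 0.12. APRR5 was at 13.5 CPM at 1 h, with no call against before, and at 18.1 ± 1.33 at 24 h. LUX, at 5.17 CPM at 1 h and 3.07 ± 0.602 at 24 h, was likewise highest at 3 h, and its test of 3 h against 24 h gave 2.60 ± 0.18. For GI the means were 142 CPM at 1 h, 226 at 3 h and 116 ± 3.14 at 24 h. PRR95 and EFL2 instead dipped at 1 h, by 1.10 and 0.54 on the log2 scale, before the rise at 3 h. The comparisons against before share the libraries before, and those at 3 h share the libraries of 3 h.

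Light signalling genes moved in both directions, with 14 of 84 clusters higher and 32 lower. CDF3, a DOF factor that represses flowering genes and is removed by FKF1 with GI, had 20.1, 25.0 and 18.7 CPM before and 2.84, 2.11 and 2.69 CPM at 3 h. Its groups were widely separated, with a log2 fold change of -3.05 ± 0.20, and it was already at 3.78 CPM at 1 h. CRY1, a blue-light receptor, fell by 1.38 ± 0.09 on that scale, from 80.6, 78.6 and 82.2 to 35.7, 27.4 and 29.3 CPM. Among CONSTANS-like zinc finger proteins, COL15 had 13.1, 12.3 and 10.8 CPM before and 53.0, 45.8 and 56.5 CPM at 3 h, a change of 2.11 ± 0.12 with an adjusted p of 6.62e-19 in edgeR. The related COL16 rose by 3.20 ± 0.28 and 2 COL9 clusters by 2.62 ± 0.19 and 1.57 ± 0.11. COL15 stayed above before at 24 h (0.91 ± 0.12) and 72 h (0.98 ± 0.12), whereas COL16 had 0.33 ± 0.32 and 0.16 ± 0.32 there, with no call.

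Genes of light harvesting and carbon fixation were more often lower than higher. In the photosystem and light harvesting list, 22 of 66 clusters were lower and 7 higher, and in the list of the Calvin cycle and photorespiration 19 of 46 were lower and 3 higher, with median log2 fold changes of -0.14 and -0.32. CAB21 (Cluster-9242.44258), an antenna protein of photosystem II, went from 59.2, 52.3 and 59.7 to 26.1, 22.7 and 21.5 CPM, a change of -1.28 ± 0.10. LHCB3, another antenna protein, changed by -0.69 ± 0.07 from 296, 245 and 273 to 152, 165 and 188 CPM. In both genes no library of 3 h reached the lowest library before. Phosphoribulokinase (Cluster-9242.53569), which remakes the carbon dioxide acceptor, fell from 75.9, 70.7 and 72.9 to 35.5, 37.5 and 38.3 CPM, by 0.98 ± 0.09 on the log2 scale. PGLP1A, which opens photorespiration by removing phosphate from phosphoglycolate, had -0.99 ± 0.10, and GAPA, of the reducing step of the cycle, had -0.49 ± 0.09. The 7 higher photosystem clusters became 2 without replicate 3 before, 3 without replicate 2 before or replicate 3 of 3 h, and 4 without replicate 1 of 3 h. Without replicate 3 of 3 h, 1 Calvin cycle cluster was higher.

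The same photosystem list was on the other side at the later mornings, with 39 of 66 clusters higher than before and 0 lower at 24 h, and 25 higher and 3 lower at 72 h. At 1 h, 1 was higher and 18 lower. LHCB3 stood at 337 ± 32.2 CPM at 24 h and 302 ± 5.76 at 72 h, against 271 ± 25.2 before and 168 ± 17.9 at 3 h. At 24 h it was above before by 0.31 ± 0.07, at 72 h it was not called, and compared with 24 h the stems of 3 h fell by 1.00 ± 0.07.

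Chlorophyll synthesis was split, with 7 of 32 clusters higher and 4 lower and a median of 0.018. The called share was 34.4%, beside 21.3% of all clusters with a Swiss-Prot match. CHLH, the large subunit of the chelatase that inserts magnesium, had 169.6, 138 and 142 CPM before and 52.0, 37.8 and 45.9 CPM at 3 h, a log2 fold change of -1.73 ± 0.12. CAO, which makes chlorophyll b, had -0.84 ± 0.10. HEMC, of the early part of the pathway, instead rose in both of its named clusters, by 0.83 ± 0.11 and 0.58 ± 0.10. Among 24 clusters of carotenoid synthesis, 6 were lower and 1 was higher, a called share of 29.2%. The higher one was CRTISO, an isomerase, at 0.54 ± 0.09, and a zeaxanthin epoxidase (Cluster-9242.55052) was lower at -0.61 ± 0.14.

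Nitrogen and sulfur assimilation genes had 13 of 49 clusters lower and 1 higher. The called share was 28.6%, beside 21.3% of all clusters with a Swiss-Prot match. SULTR3;1, a sulfate transporter, went from 315, 312 and 338 to 192, 190.0 and 206 CPM, a log2 fold change of -0.72 ± 0.08. GLU1, a ferredoxin-dependent glutamate synthase, fell from 166, 158 and 179.9 to 102, 106 and 103 CPM, or by 0.70 ± 0.06. The 2 groups did not overlap in either gene. The lower count was 6 without replicate 3 before or replicate 1 of 3 h, and 8 without replicate 1 before or replicate 2 of 3 h.

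**Figure D2:**
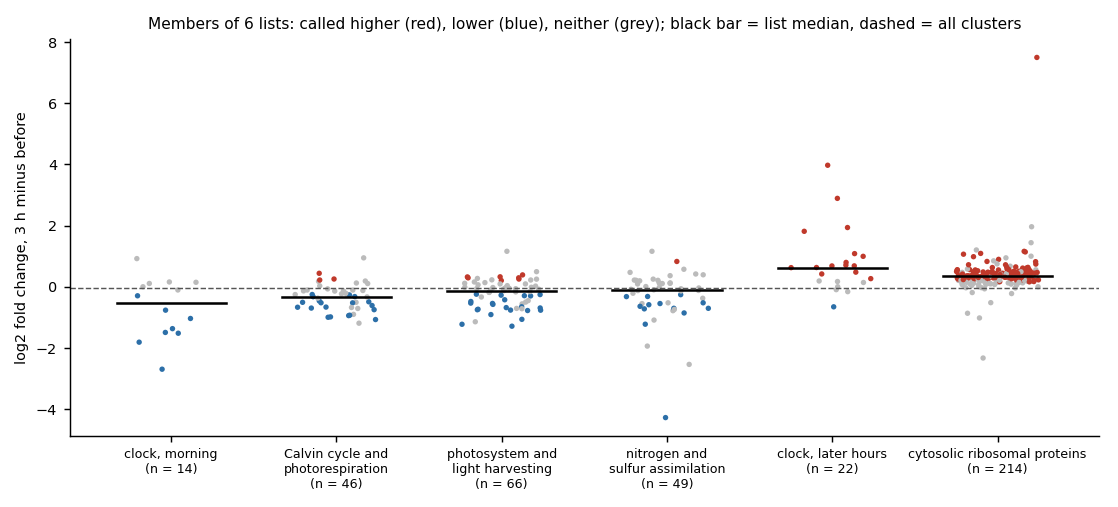
Log2 fold change of every tested member of 6 gene lists at 3 h against before. Red points were called higher, blue points lower and grey points neither, the black bar is the list median, and the dashed line is the median of all tested clusters, -0.029. The morning clock median is -0.52, that of the later clock 0.63 and that of the cytosolic ribosomal proteins 0.35. The isolated red point of the ribosomal list is RPL22C, which had 0 counts in all 3 libraries before, so that its fitted fold is no bound.

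Cytosolic ribosomal proteins, the protein part of the ribosomes that translate nuclear genes, had 145 of 214 clusters higher and 0 lower. Many of them belong to small gene families whose copies may share reads. Their median log2 fold change was 0.35, with 95.3% of members above 0, and only 5 of the called members reached 2-fold. The small subunit had 58 of 85 members higher and the large subunit 87 of 129, with a median of 0.35 in each. RPL32A, of the large subunit, had 25.9, 18.7 and 21.6 CPM before and 50.0, 41.9 and 49.2 CPM at 3 h, a log2 fold change of 1.10 ± 0.10. The SA protein of the small subunit (Cluster-9242.51931) went from 268, 273 and 276 to 410.1, 379 and 411 CPM, a change of 0.56 ± 0.05 with an adjusted p of 3.08e-11 in edgeR. Both genes had their groups apart by more than the spread within either.

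Summed over the list, the ribosomal proteins held 22600 to 23317 CPM in the libraries before, 25378 to 25594 at 1 h, 28360 to 30001 at 3 h, 22990 to 23918 at 24 h and 26824 to 29364 at 72 h. The libraries of 3 h thus lay above all those before, at 1 h and at 24 h, and overlapped with those at 72 h. In counts of calls against before, 37 members were higher at 1 h, 15 higher and 12 lower at 24 h, and 125 higher and 1 lower at 72 h. Left-out libraries put the count at 3 h between 126 and 139, with up to 2 lower members, reached without replicate 3 before.

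Starch and sugar genes were called in both directions, with 17 of 116 clusters for enzymes of starch, sucrose and trehalose higher and 13 lower. That is 25.9% of the list, near the 21.3% of all clusters with a Swiss-Prot match. BAM9 (Cluster-9242.88027), a catalytically inactive relative of the beta-amylases that break down starch, had 19.4, 18.4 and 18.9 CPM before and 107, 88.2 and 74.3 CPM at 3 h, a log2 fold change of 2.25 ± 0.14. At 1 h it averaged 21.9 CPM and at 24 h 22.9 ± 2.15 CPM, with no call against before at either time. AGPS2 (Cluster-9242.55253), a subunit of the first committed enzyme of starch synthesis, rose by 1.35 ± 0.09 from 26.9, 26.6 and 23.6 to 70.4, 62.8 and 62.4 CPM. LSF1, which is needed for starch breakdown, rose by 1.09 ± 0.11, and TPS6, of the trehalose phosphate synthase family, by 0.93 ± 0.09. All 4 were separated by more than the spread of either group.

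Sugar transporters had 10 of 66 clusters higher and 7 lower, 25.8% in all and likewise near that share. PLT3, a polyol transporter, changed by 2.95 ± 0.49 from 2.48, 3.56 and 5.20 to 42.8, 23.3 and 22.2 CPM, and STP13, a hexose importer, by 1.25 ± 0.12. INT1, an inositol transporter of the vacuole, fell by 0.72 ± 0.10. Of 46 clusters linked to dark or starvation, 32.6% were called, 9 higher and 6 lower, beside 21.3% of all clusters with a Swiss-Prot match. The higher ones were led by DRM1 at 2.11 ± 0.27. Among the lower ones was At1g56220, a DRM1 homolog, at -0.63 ± 0.08. Without replicate 1 of 3 h, the highest library for PLT3, higher clusters were 11 of the enzymes and 4 of the transporters, and the change of PLT3 was 2.58.

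**Figure D3:**
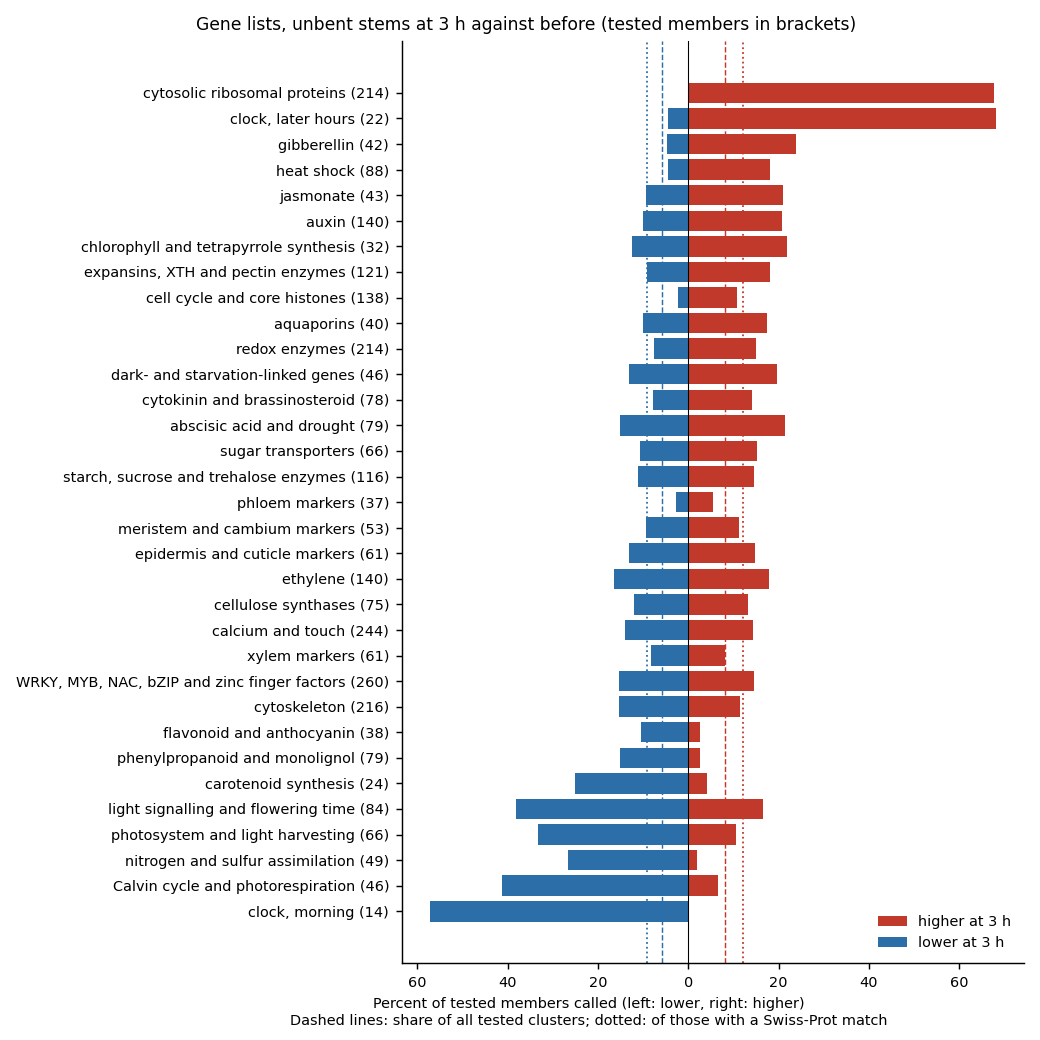
Percent of tested members called higher (red, right) and lower (blue, left) at 3 h in the gene lists. Brackets give the number of tested members. The guard cell and root marker lists, with 9 and 8 tested members, are not drawn. Nor are those of ribosomal RNA, the chloroplast genome and other organisms. Dashed lines are the shares over all tested clusters, 8.24% higher and 5.88% lower, and dotted lines those over clusters with a Swiss-Prot match, 12.1% and 9.15%. The cytosolic ribosomal proteins and the later clock extend farthest to the right, and the morning clock farthest to the left.

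Transcription factors near 0 before were among the largest rises by the naming rule. BEE1, a basic helix-loop-helix factor first known from brassinosteroid responses, had 0.067, 0.194 and 0.368 CPM before and 55.1, 38.3 and 25.3 CPM at 3 h, a log2 fold change of 7.43 ± 0.45. It was below 1 CPM on average at 1 h (0.622), 24 h (0.956) and 72 h (0.43). Its relative BEE3 rose by 4.15 ± 0.49 in the same way, from 0.603, 0.323 and 1.16 to 17.4, 11.3 and 9.99 CPM, and averaged 0.777 CPM at 1 h. ERF110, of the ethylene response factor family, was instead up from 1 h, with 0.335, 0.582 and 0.893 CPM before, 30.5 on average at 1 h, and 55.2, 30.1 and 21.3 CPM at 3 h. ERF025, of the same family, was higher still at 1 h, with 169 CPM on average against 46.2 ± 20.1 at 3 h and 1.99 ± 1.27 before. In BEE1, BEE3, ERF110 and ERF025, replicate 1 was the highest library of 3 h, and the changes without it were 7.12, 3.87, 5.34 and 4.07.

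Genes known from the response to abscisic acid and water shortage were also among the largest rises. LTI65, a protein induced by cold, drought and abscisic acid, had 12.9, 15.6 and 17.8 CPM before, 186 on average at 1 h, and 455, 268 and 248 CPM at 3 h. Its change at 3 h was 4.39 ± 0.33, with an adjusted p of 1.39e-08, and 49.7 ± 6.58 CPM remained at 24 h. TSPO, a membrane protein known to be induced by abscisic acid, had 3.28, 2.78 and 2.26 CPM before and 102, 44.9 and 45.4 CPM at 3 h, a change of 4.54 ± 0.52 that was 4.04 without replicate 1 of 3 h. In the list of abscisic acid and drought as a whole, 17 of 79 clusters were higher and 12 lower. That is a called share of 36.7%, beside 21.3% of all clusters with a Swiss-Prot match. NCED1, of the enzyme step that limits abscisic acid synthesis, rose by 1.41 ± 0.14, from 7.77, 9.12 and 10.5 to 23.9, 21.2 and 27.6 CPM. AAO3, which acts in the last step, had -0.67 ± 0.07, and the receptor PYL1 fell by 1.00 ± 0.14. ERD15, a gene induced early by dehydration, rose from 178, 191 and 198 to 499, 489 and 495 CPM, a change of 1.39 ± 0.07, after -0.60 ± 0.07 at 1 h against before.

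The other large rises were 3 clusters matched to a 21 kDa protein of carrot, 2 clusters of GIP2, a probable aspartic proteinase, an extracellular ribonuclease matched to tomato, the factor BHLH162 and the plastid chaperone ATJ11, with log2 fold changes from 3.71 to 4.90. One of the carrot matches (Cluster-9242.61276) went from 1.14, 3.62 and 3.26 to 78.3, 46.3 and 48.6 CPM. The naming rule itself required that their 3 libraries of 3 h lie above those before.

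**Figure D4:**
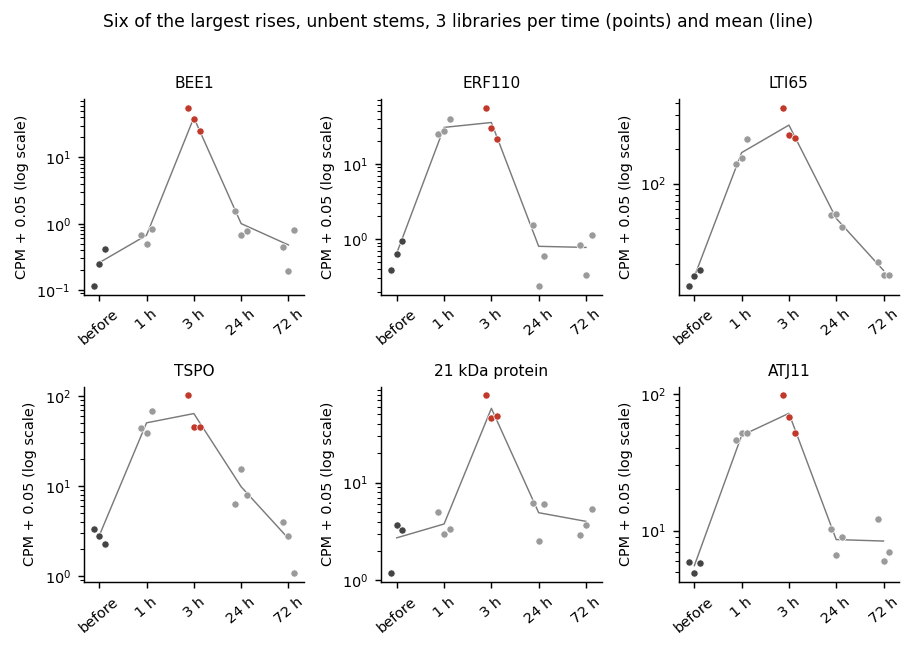
CPM plus 0.05, on log axes, of 6 of the genes with the largest rises at 3 h in unbent stems, by harvest time, with 1 point per library, 3 per time (dark before, red at 3 h), and lines through the means. The 21 kDa protein is Cluster-9242.61276. BEE1 and the 21 kDa protein are high at 3 h alone among the 5 times, while ERF110, LTI65, TSPO and ATJ11 are already high at 1 h.

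Most of the largest falls by the naming rule were still low on the later mornings. PUB23, a ubiquitin ligase that dampens immune responses, had 8.44, 10.7 and 16.2 CPM before, 11.7 on average at 1 h, and 0.454, 0.132 and 0.569 CPM at 3 h, a log2 fold change of -4.86 ± 0.63. It averaged 0.567 ± 0.312 CPM at 24 h and 0.147 ± 0.255 at 72 h, and no difference was called between 3 and 24 h, at -0.45 ± 0.91. PHI-1 (Cluster-9242.44628), named for a phosphate-induced gene of tobacco, went from 113, 78.9 and 172 to 17.0, 17.0 and 14.7 CPM, with 147 CPM on average at 1 h, 17.5 ± 6.70 at 24 h and 22.1 ± 1.66 at 72 h. PUMP5, a carrier of the inner mitochondrial membrane, had 75.9, 73.0 and 113 CPM before and 11.3, 7.96 and 9.16 CPM at 3 h, and 7.31 ± 2.68 CPM at 24 h. None of these 3 genes was called against before at 1 h, and all 3 were low at 3 h.

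ERF5 (Cluster-9242.54699) was down earlier, with 122, 100.0 and 134 CPM before, 23.4 on average at 1 h and 13.4, 14.4 and 12.5 CPM at 3 h, a log2 fold change of -3.15 ± 0.39. The calcium-binding proteins KRP1 and CML23 changed by -3.09 ± 0.34 and -3.33 ± 0.50, and the RING finger protein ATL2 fell by 3.00 ± 0.35. KRP1 had 57.3, 54.4 and 90.5 CPM before, 8.85, 6.65 and 8.18 CPM at 3 h, and 7.67 ± 2.81 CPM at 24 h. GATL9, of a family of glycosyltransferases, At3g55350, the kinase-like protein CCR4, NUDT18 and the second PHI-1 cluster (Cluster-9242.7841) completed the largest falls of this kind, at -4.69 to -2.94. In all of these genes replicate 3 was the highest library before, and that library also had the highest share of thrips matches. Without it their changes stayed past the threshold, as for PUB23 at -4.56, PHI-1 at -2.56 and -4.12, PUMP5 at -2.97, KRP1 at -2.81, CCR4 at -2.82 and ERF5 at -3.05.

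ABCG5 and MYC2 followed other courses. ABCG5, an ABC transporter, had 133, 122 and 117 CPM before, 34.7 on average at 1 h, and 9.36, 5.66 and 6.42 CPM at 3 h, a change of -4.11 ± 0.14 with an adjusted p of 7.34e-18 in edgeR. At 24 h it was at 56.4 ± 4.58 CPM, above 3 h and still below before. MYC2 (Cluster-9242.54106), the central transcription factor of jasmonate responses, had 76.6, 66.9 and 99.6 CPM before, 90.4 on average at 1 h, and 11.1, 11.3 and 11.9 CPM at 3 h, a change of -2.83 ± 0.18. It was at 17.8 ± 3.93 CPM at 24 h, and the test of 3 h against 24 h gave -0.63 ± 0.18 with an adjusted p of 0.03. Of 4 further clusters named MYC2, Cluster-9242.8539 was also called lower, at -0.58 ± 0.19, and the others had -0.31, -0.23 and 0.21 with no call.

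**Figure D5:**
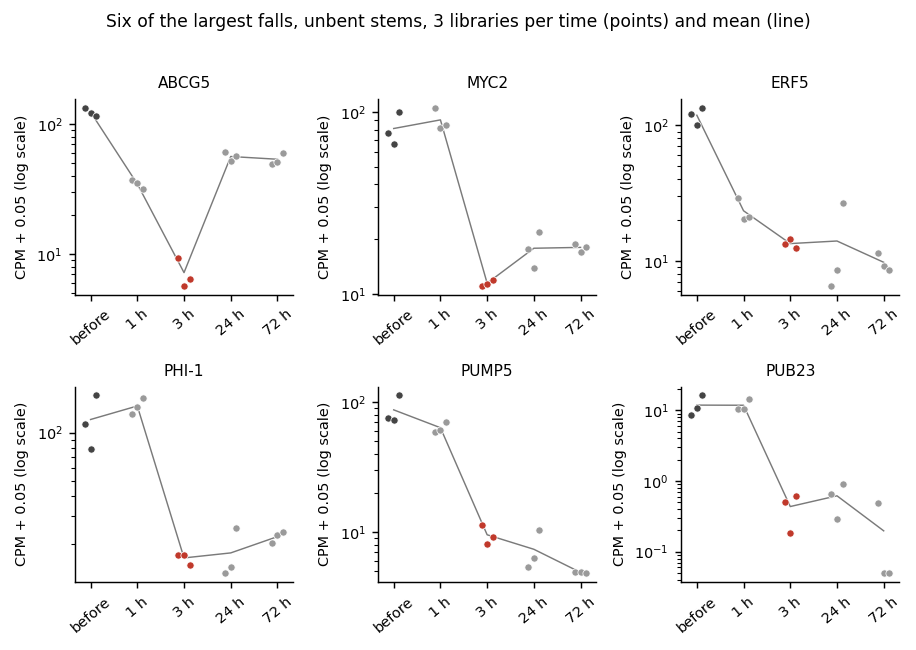
CPM plus 0.05, on log axes, of 6 of the genes with the largest falls at 3 h in unbent stems, by harvest time, with 1 point per library, 3 per time (dark before, red at 3 h), and lines through the means. ABCG5 stands at 56.4 CPM again at 24 h, whereas PHI-1 (Cluster-9242.44628), PUMP5, PUB23 and ERF5 (Cluster-9242.54699) remain low at 24 and 72 h.

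Hormone lists other than abscisic acid were called in both directions. The called shares were 34.3% (ethylene), 30.2% (jasmonate), 28.6% (gibberellin) and 30.7% (auxin), beside 21.3% of all clusters with a Swiss-Prot match. Among 140 ethylene clusters, 25 were higher and 23 lower. ACS1, which makes the precursor of ethylene, went from 15.3, 12.5 and 21.4 to 4.20, 3.22 and 3.93 CPM, a log2 fold change of -2.11 ± 0.21, and the test of 3 h against 24 h gave -0.11 ± 0.23. Of 43 jasmonate clusters, 9 were higher and 4 lower, or 2 lower without replicate 3 of 3 h. TIFY9, of the JAZ repressors, rose by 1.99 ± 0.23 after 5.21 ± 0.22 at 1 h, and the synthesis enzymes AOC and AOS1 had 0.68 ± 0.06 and -0.59 ± 0.08.

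Gibberellin genes were more often higher, 10 of 42 clusters against 2 lower. GA20OX2, of the synthesis pathway, had 4.69, 3.75 and 6.09 CPM before and 14.0, 11.1 and 10.2 CPM at 3 h, a log2 fold change of 1.27 ± 0.18. GA2OX1, which inactivates gibberellins, rose as well, by 2.07 ± 0.28, as did the gibberellin-regulated peptides SN2 (2.25 ± 0.29) and GASA14 (2.06 ± 0.23), while the DELLA repressor GAI fell by 0.69 ± 0.11. Without replicate 1 or 3 before, or replicate 1 or 2 of 3 h, 1 gibberellin cluster was lower. Auxin genes had 29 of 140 clusters higher and 14 lower, with PILS5, an auxin carrier, at 1.93 ± 0.24 and the early auxin gene AUX22D at 1.09 ± 0.15. PILS5 went from 36.0, 23.9 and 36.6 to 156, 117 and 95.3 CPM. The 14 lower auxin clusters became 7 without replicate 1 of 3 h.

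In the wall, 22 of 121 expansin, xyloglucan and pectin clusters were higher and 11 lower. The called share was 27.3% in this list and 25.3% in the cellulose synthase list, beside 21.3% of all clusters with a Swiss-Prot match. XTH9, a xyloglucan-modifying enzyme, had 152, 122 and 146 CPM before and 383, 359 and 332 CPM at 3 h, a log2 fold change of 1.35 ± 0.13, and the polygalacturonase At1g48100 had -1.80 ± 0.20. The cellulose synthase list also holds COBRA proteins, which are not synthases. Of its 75 clusters 10 were higher, such as the COBRA protein COB at 0.63 ± 0.07, and 9 lower, led by CSLG2 at -1.72 ± 0.16. The lower count was 15 in a fit of the 2 groups compared alone. CESA8, a cellulose synthase of secondary walls, rose by 0.55 ± 0.07 from 210.5, 186 and 207 to 322, 268 and 294 CPM. Phenylpropanoid and monolignol genes had 12 of 79 clusters lower and 2 higher. HST, of the monolignol pathway, went from 26.9, 25.9 and 32.1 to 11.3, 9.48 and 11.0 CPM, or -1.42 ± 0.17, while CSE, of the same pathway, rose in Cluster-9242.59547 (1.66 ± 0.17) and fell in Cluster-9242.22655 (-1.40 ± 0.19). In the flavonoid list 4 of 38 clusters were lower, including the glucosyltransferase GT6 at -1.54 ± 0.11, and 1 was higher. The lower count was 2 without replicate 2 before, replicate 1 of 3 h or replicate 3 of 3 h, and the higher one was 0 without replicate 1 before or either of those 2 libraries of 3 h. In limma-voom the counts were 2 and 0. The called share was 17.7% in the phenylpropanoid and 13.2% in the flavonoid list, below the 21.3% of all clusters with a Swiss-Prot match.

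Markers of cell types were called in both directions in most lists. Of 61 xylem markers 5 were higher and 5 lower, of 37 phloem markers 2 and 1, of 61 epidermis and cuticle markers 9 and 8, of 53 meristem and cambium markers 6 and 5, of 9 guard cell markers 4 and 0, and of 8 root markers 0 and 1. Against 12.1% higher and 9.15% lower among all clusters with a Swiss-Prot match, the called share of both directions was below their sum of 21.3% in the xylem (16.4%) and phloem (8.11%) lists, near it in the meristem list (20.8%) and above it in the epidermis list (27.9%). All 4 guard cell calls were clusters of 1 name, HT1, a kinase of stomatal responses to carbon dioxide, with log2 fold changes of 0.24 to 0.72, and the root call was a cluster of MYB36. The xylem switch NAC030 fell by 2.39 ± 0.32, from 4.62, 3.81 and 3.84 to 0.907, 0.197 and 1.14 CPM, and WOX4, a cambium regulator, rose by 0.64 ± 0.09 from 35.4, 40.3 and 36.2 to 60.6, 54.7 and 59.3 CPM. The epidermal factor GL2 fell by 1.05 ± 0.13, and 2 clusters of the cutin enzyme DCR had 1.27 ± 0.20 and -0.80 ± 0.15. No marker of xylem, phloem, guard cells or root was at 0 in all 6 libraries, against 1 of the epidermis and 2 of the meristem list. Most of these counts depended on single libraries. The lower xylem markers were 1 to 4 with a library left out (1 without replicate 3 before, 2 without replicate 1 before or replicate 3 of 3 h, and 3 without replicate 1 or 2 of 3 h), 3 in limma-voom and 14 in a fit of the 2 groups compared alone, and the higher ones were 3 without replicate 3 of 3 h. The epidermis counts were 4 and 3 without replicate 1 of 3 h, 5 and 4 without replicate 3 before, and 5 lower without replicate 2 of 3 h. In the meristem list 3 were lower without replicate 1 or 2 of 3 h. The 4 HT1 calls became 1 without replicate 2 or 3 before and 2 without replicate 1 before or replicate 1 or 3 of 3 h, and they were also 2 with no filter on low counts, in limma-voom and in the fit of the 2 groups alone. The root call was lost without replicate 2 or 3 before, without replicate 1 or 2 of 3 h and in the fit of the 2 groups alone. Of the phloem calls, the higher ones became 1 without any single library other than replicate 3 before, and the lower one was lost without replicate 2 before or replicate 1 or 2 of 3 h.

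Bent stems offered a comparison of nearly the same times of day with no library in common. Since they had been bent, the time since bending differs as well and cannot be told apart from the hour. It is therefore a description of other libraries and not a replicate of the unbent comparison. Between bent stems of 3 h and bent stems of 24 h, 5699 clusters (10.8%) were higher and 4666 (8.82%) lower at 3 h. Of the 4361 clusters higher in unbent stems at 3 h against before, 2491 were also higher there, which is 57.1% of the unbent and 43.7% of the bent list, and 89 (2.04%) were lower. Of the 3110 lower clusters, 1356 were shared, 43.6% of the unbent and 29.1% of the bent list, and 154 (4.95%) were higher. In the morning clock list of 14, 7 were lower and 3 higher in this bent comparison. Of the 22 later clock clusters 13 were higher and 1 lower, and of the 214 ribosomal proteins 129 were higher and 4 lower.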

How the data were processed

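The deposited count table holds expected counts that the authors estimated by RSEM (version 1.2.28 in the submitters' processing notes). The tool of the de novo assembly is not given in those notes or the labels. Of its values 8.05% were not whole, and all were rounded. The deposited annotation table holds FPKM values of the authors, which served as an alternative for the named genes, in limma on log2(FPKM + 0.1) and log2(FPKM + 1). Counts were analysed with edgeR 4.0.16 in R 4.3.3: filterByExpr on 9 groups, TMM scaling, and a robust quasi-likelihood fit of all 27 libraries. Adjusted p-values are Benjamini-Hochberg values over 52918 clusters, called under 0.05. After a log2 fold change ± is the SE, after a mean the SD. The rule named the 15 largest rises and 15 largest falls with a Swiss-Prot match, at least 10 CPM and no overlap, up to 6 called members per list, and all tested clock members, 245 clusters. The RPL22C and further MYC2 clusters were named after their values were seen. Members and lists were chosen with earlier results of these data known, and the list of WRKY, MYB, NAC, bZIP and zinc finger factors with the annotation in view. Lists are described by counts of calls and medians. On simulated counts for this comparison, 65 of 100 clusters changed by 1 on the log2 scale and 20 of 100 changed by 0.5 were recovered, with 5 false calls among 50509 clusters. Far fewer clusters were changed there than were called in the data, so these rates do not give the sensitivity of the real comparison. No libraries of a group were duplicates (chi-square per degree of freedom 6.77 to 20.7). Alternatives used limma 3.58.1 and DESeq2 1.42.0.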

Additional observations from a re-analysis of the deposited data

Results flagged for a closer look

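Direct tests between the later times bear on whether the change of unbent stems from before to 3 h differs from that to another time, since the libraries before cancel in such a test. Between 3 and 24 h, 5630 clusters differed with an adjusted p under 0.05 in edgeR, and between 3 and 1 h 6749 differed. Both tests use the same 3 libraries of 3 h.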

How the results depend on the processing

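With a minimum change of 2-fold, 1868 clusters were called at 3 h against before, 2124 at 1 h, 772 at 24 h, 1154 at 72 h, 1279 for 3 h against 24 h, 2380 for 3 h against 1 h and 3462 for bent stems of 3 h against 24 h. With each replicate left out in turn, the counts were 5643 to 6728, 4122 to 4963, 2690 to 3852, 3371 to 4644, 3832 to 5165, 4961 to 5820 and 8120 to 9097 in that order. At 24 h the count was 2959 without replicate 1 before, 2920 without replicate 1 of 24 h and 2690 without its replicate 3, and at 72 h it was 3371 without replicate 1 of 72 h. Other size factors, other filters, DESeq2, limma-voom, a fit of the groups compared alone, and leaving out other organisms and rRNA gave 6684 to 7832 clusters at 3 h against before. Same-numbered libraries of the 2 groups shared only a number, with correlations of their deviations of 0.0617, 0.0578 and -0.0226, and a fit with the replicate number as a block called 7598 clusters. Of the 233 named clusters that were called, 216 kept the call in every alternative that gave them a result, other than the 2-fold minimum. Another 17 lost it in at least 1, among them the low GI cluster, LNK1 (Cluster-9242.46471) and SUC2. Among these 16 alternatives, DESeq2 gave a result for 230 of the 233. The stricter filter on low counts and the fit of the 2 groups alone gave one for 232 each. No named change reversed. How depth limits the calls was not tested.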

Other observations

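The remaining gene lists had up to 30.0% of their clusters called at 3 h against before, beside 14.1% of all tested clusters and 21.3% of those with a Swiss-Prot match. The heat shock (22.7%), redox (22.4%) and cytokinin and brassinosteroid (21.8%) lists were close to the latter share, and the cell cycle list, with 18 of 138 called, was below it. Of 88 heat shock clusters 16 were higher than before and 4 lower, including the constitutive chaperones HSC80, which went from 254, 261 and 265 to 372, 347 and 418 CPM (0.55 ± 0.06), and HSC-2, from 862, 858 and 874 to 1217, 1051 and 1108 CPM (0.38 ± 0.06). Of 138 clusters of the cell cycle and core histones 15 were higher, or 9 without replicate 2 before, and 3 lower. CKS1, a subunit of cyclin-dependent kinase complexes, had 0.54 ± 0.10 and the cyclin CYCD1-1 had -0.79 ± 0.12. Of 216 cytoskeleton clusters 25 were higher, with the tubulin TUBB1 at 0.95 ± 0.08, and 33 lower, with MAP70.2, a microtubule-associated protein, at -0.84 ± 0.12. Among 40 aquaporin clusters 7 were higher and 4 lower, or 2 lower without replicate 1 before or replicate 1 or 2 of 3 h, and the tonoplast channel TIP1-1 went from 210.2, 194 and 205 to 335, 341 and 333 CPM (0.73 ± 0.12).

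Of 244 calcium and touch clusters 35 were higher and 34 lower, with the calmodulin-dependent NAD kinase NADKC at 1.25 ± 0.12, the mechanosensitive channel MSL10 at -0.58 ± 0.07 and the kinase CIPK14 at -1.67 ± 0.17. CIPK14 had been higher than before at 1 h, by 1.07 ± 0.16. Of 78 cytokinin and brassinosteroid clusters 11 were higher, such as the brassinosteroid factor BZR2 at 0.51 ± 0.08, and 6 lower, such as the cytokinin response regulator RR26 at -0.92 ± 0.07. Redox enzymes had 32 of 214 clusters higher and 16 lower, with the glutaredoxin GRXC6 at -1.69 ± 0.14. Among 260 WRKY, MYB, NAC, bZIP and zinc finger factors 38 were higher, with MYB61 at 1.60 ± 0.18 and BZIP53 at 1.06 ± 0.11, and 40 lower, or 24 without replicate 3 before.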
